A study of Homo sapiens with 12 samples.

Results

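The 9 genes described here encode enzymes of the pentose phosphate pathway (PGD, TKT and TALDO1) and of the synthesis of nucleotides from small precursors (PRPS1, PPAT, PAICS, GART, CAD and IMPDH2). They were taken by name from the 26364 genes of the count table, with earlier results of these data known, and all 9 were among the 13852 genes that passed the filter on low counts. RNA-seq had been performed on HepG2 cells, an established line from a human liver cancer, before insulin (0 min) and after 5, 10, 30 and 240 min of insulin, giving 10 libraries with 2 replicates at each time. The times come from the library titles. The treatment text of every library, those at 0 min included, instead gives serum-free medium for 16 h and then 3 nM insulin for 5 min, and the extraction texts of the RNA-seq and ChIP-seq records appear exchanged. The study describes its RNA-seq as a single experiment on independent biological samples, and no label says how the 2 replicates of a time were cultured, so the p-values below measure the spread between libraries of that experiment. A further library held insulin receptor (IR) ChIP-seq, with 1 input library. Both came from HepG2 cells labelled with 3 nM insulin, and no serum-free or stimulation time is listed for them.

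The pentose phosphate pathway draws on glucose 6-phosphate to make NADPH and ribose 5-phosphate. PRPP synthetase activates this ribose, and purine synthesis then builds the base on it step by step, whereas pyrimidine synthesis makes the ring first and attaches it to PRPP afterwards. In liver, NADPH from the oxidative steps serves lipid synthesis, and growth signals such as insulin are known to favour these pathways.

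Depth ranged from 18347109 to 45005769 gene counts per library, of which 29319 to 64790 fell on the 9 members, and ERCC spike-in RNA took a further 1.59% to 2.36%. The least counted member in any library was PRPS1, with 874 counts. Replicates differed beyond sampling noise at each time (chi-square divided by its degrees of freedom, 2.86 to 6.46), so none was merged. All 10 hepatocyte markers passed the filter, whereas 5 of 10 markers of blood, endothelial, fibroblast and bile duct cells did. In that list the leukocyte marker PTPRC had 0 counts in all libraries, whereas LYZ and CD68 were expressed. The summed level of that second list was 5923 to 6482 CPM (counts scaled to a common library size) at 0 min and 4851 to 4992 CPM at 240 min, and LYZ alone, which fell by 0.34 on the log2 scale at 240 min (adjusted p = 7.55e-05), held 4804 to 6433 CPM of it. Of the other 4 markers tested in that list, among them CD68 (36.3 to 45.3 CPM), none was called. The median log2 fold change of the 5 was 0.11 (range -0.34 to 0.46). Of the hepatocyte markers 1 rose (HNF4A, 0.30) and 1 fell (AHSG, -0.40) at 240 min. The part of these differences in the members' values was not tested. In bulk RNA, fewer cells of one kind and less RNA per cell cannot be told apart.

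In hg19, PPAT (chromosome 4, 57259529-57301802, minus strand) and PAICS (57301915-57327534, plus strand) lie head to head, with their annotated starts 113 bases apart. GART (chromosome 21, 34876238-34915198, minus strand) lies in the same way 146 bases from SON (34915344-34949820, plus strand), which encodes an RNA-binding splicing protein and is no member. The other members are PGD on chromosome 1 (10459049-10480568, plus), TKT on chromosome 3 (53258723-53290130, minus), TALDO1 on chromosome 11 (747432-765024, plus), PRPS1 on chromosome X (106871654-106894256, plus), CAD on chromosome 2 (27440258-27466660, plus) and IMPDH2 on chromosome 3 (49061762-49066875, minus). No other gene of the deposited table overlapped the span of a member.

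Promoter windows, from 250 bases before to 50 after a gene's start, were taken from RefSeq (GRCh38.p14) for 8 of the 9 members. The window of PPAT is shown because it also covers the start of PAICS. That of GART is shown as the other head-to-head start, which in hg19 lies 171 bases from the edge of an IR peak. That of CAD is shown because this gene changed in the opposite direction. Each is printed 5′ to 3′ on the strand of its gene, and capitals mark the E-box CACGTG and the GC box GGGCGG, the latter also as CCGCCC on the other strand.
PPAT, chr4:56435566-56435865, minus strand: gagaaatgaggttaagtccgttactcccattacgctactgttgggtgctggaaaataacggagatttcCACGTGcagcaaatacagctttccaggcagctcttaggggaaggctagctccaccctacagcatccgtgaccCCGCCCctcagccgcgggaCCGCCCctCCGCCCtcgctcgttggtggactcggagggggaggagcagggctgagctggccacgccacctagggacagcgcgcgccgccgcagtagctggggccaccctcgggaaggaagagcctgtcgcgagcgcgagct
GART, chr21:33542843-33543142, minus strand: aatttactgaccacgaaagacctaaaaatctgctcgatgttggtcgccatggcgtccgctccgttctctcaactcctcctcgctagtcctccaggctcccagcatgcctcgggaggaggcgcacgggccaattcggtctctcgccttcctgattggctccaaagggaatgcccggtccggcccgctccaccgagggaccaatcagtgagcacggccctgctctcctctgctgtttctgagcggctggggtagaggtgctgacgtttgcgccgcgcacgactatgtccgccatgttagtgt
CAD, chr2:27217119-27217418, plus strand: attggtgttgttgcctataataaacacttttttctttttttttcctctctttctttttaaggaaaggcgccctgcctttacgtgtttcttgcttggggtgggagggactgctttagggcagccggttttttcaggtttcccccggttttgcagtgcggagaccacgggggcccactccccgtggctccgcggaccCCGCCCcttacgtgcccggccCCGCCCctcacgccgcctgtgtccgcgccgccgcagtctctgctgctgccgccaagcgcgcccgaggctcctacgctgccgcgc
The PPAT window held 1 CACGTG, 182 bases before the PPAT start, and 3 GC boxes. A RefSeq window of PAICS shared 236 bases with it, and in that window the same CACGTG began at base 41 of the transcript. The other PAICS windows, with starts 25108 and 645 bases from that of PPAT, held no CACGTG. No CACGTG was found in the windows of PGD, TKT, TALDO1, PRPS1, GART or CAD. The motif was present in 7.26% of all 35116 RefSeq windows of this length and the GC box in 44.95%. GC boxes were also found in the windows of PGD, TKT, TALDO1, PRPS1 and CAD. The PAICS windows held them too, except the one that starts 25108 bases from PPAT. The first GART window held no GC box but 3 copies of CCAAT (searched on both strands). At least 1 CCAAT was also found in the windows of PGD, TKT, TALDO1, PRPS1 and CAD, against 34.6% of all windows. The PPAT and PAICS windows held no CCAAT. A further GART window, at another start, held 3 GC boxes and 1 CCAAT. The antioxidant response element core TGACNNNGC, searched likewise, was found in the windows of PPAT and PGD, against 13.3% of all windows. In the PPAT window it overlaps a GC box, and the same site lies in the PAICS window that shares these bases. These matches are descriptions of sequence, and no binding to them was measured here.

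Compared per transcript length (TPM), IMPDH2 was the highest and CAD the lowest member at 0 min. There the levels were 296 ± 5.32 TPM for IMPDH2 (SD, n = 2), 283 ± 1.10 for PAICS, 265 ± 5.50 for PGD, 227 ± 12.5 for TALDO1 and 225 ± 12.1 for TKT. Lower levels were found for GART (106 ± 1.64 TPM), PRPS1 (49.6 ± 0.332), PPAT (40.7 ± 0.0133) and CAD (29.2 ± 0.768). Only TALDO1 and TKT, neighbours in this order, overlapped between replicates at 0 min. At 240 min PAICS ranked first with 357 ± 12.6 TPM, followed by PGD (298 ± 9.57) and IMPDH2 (293 ± 2.29), which overlapped. The head-to-head pair thus shared a start region at unequal levels, with a PAICS to PPAT ratio of TPM of 6.94 ± 0.0293 at 0 min and 6.35 ± 0.423 at 240 min.

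**Figure D1:**
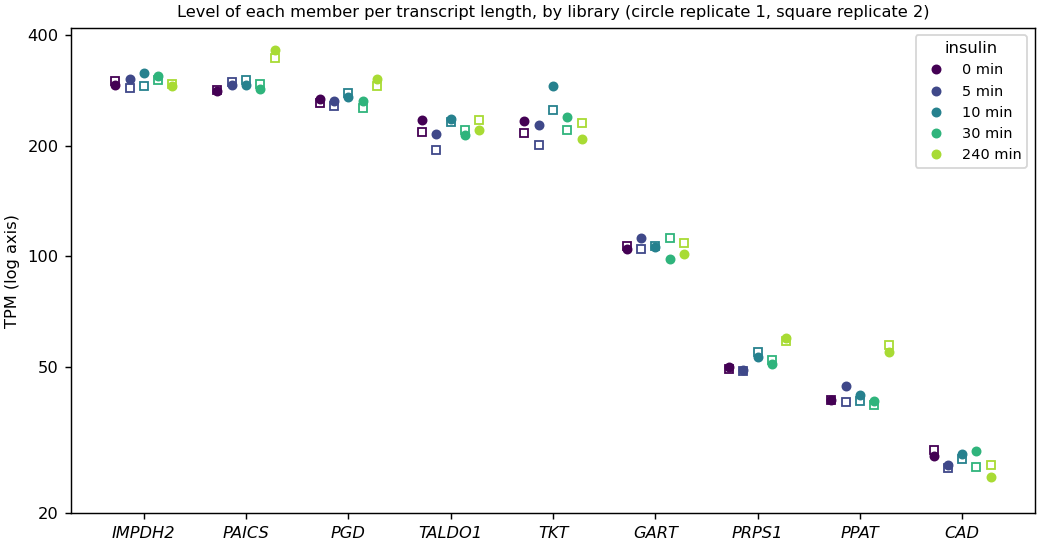
Level of the 9 members per transcript length in TPM (log axis), for the 10 libraries, with colour for the time of insulin and a circle or square for replicate 1 or 2. IMPDH2, PAICS and PGD lie above 250 TPM in all libraries and CAD lies below 30 TPM. PAICS, PGD, PRPS1 and PPAT have their highest levels at 240 min.

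At 240 min of insulin, PPAT, PAICS, PRPS1 and PGD were higher than at 0 min and CAD was lower, by 11.4% to 31.9% in size. TKT, TALDO1, GART and IMPDH2 did not pass the threshold (edgeR's quasi-likelihood test, Benjamini-Hochberg adjusted p under 0.05 over all genes tested). The 5 members called of 9 (55.6%) compare with 41.0% of all 13852 genes tested, the 4 that rose with 20.6% of all genes and the 1 that fell with 20.4%. The median absolute log2 fold change was 0.16 over the members and 0.20 over all genes. The calls of the members went in both directions, as did those of all genes.

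**Figure D2:**
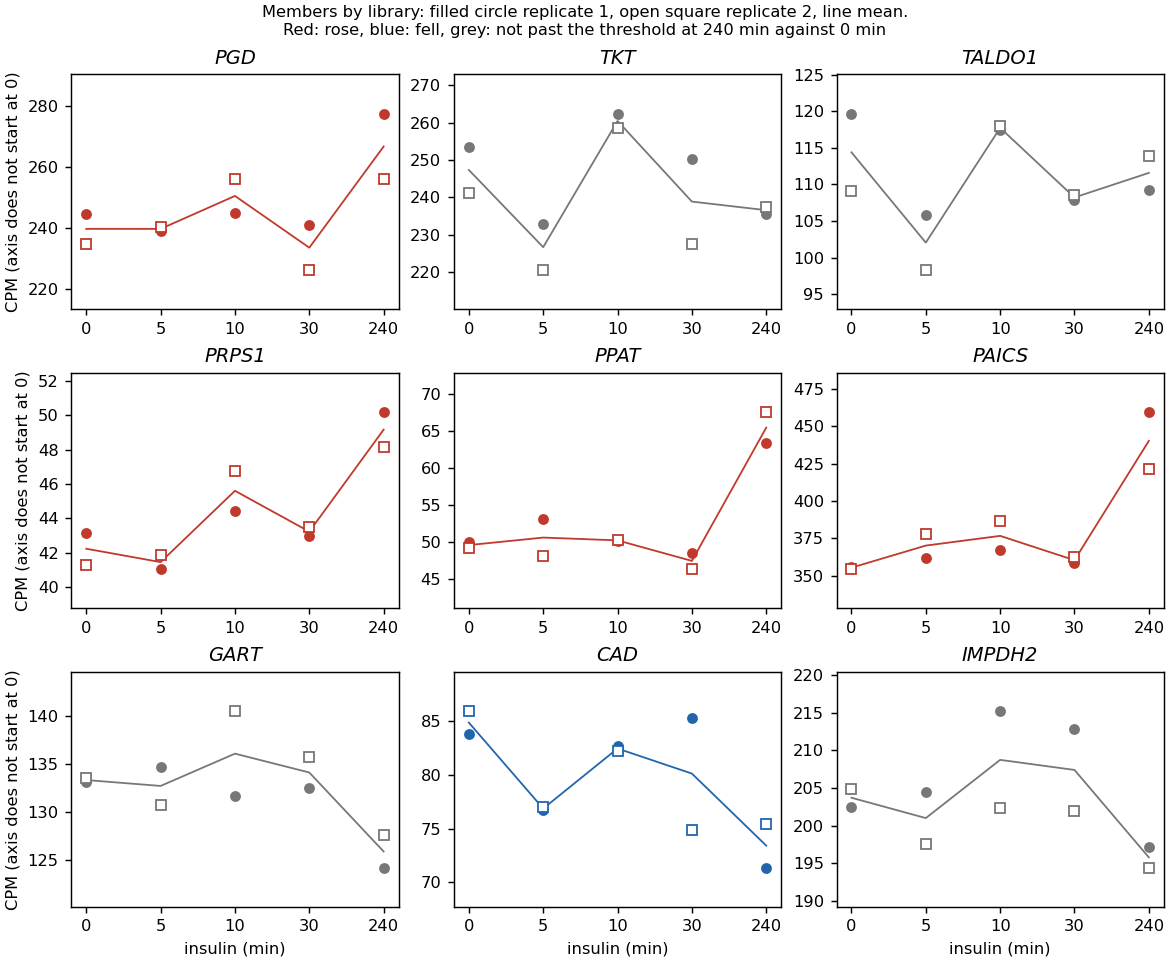
Expression in CPM of each member in every library against the time of insulin in min (times evenly spaced, axes not starting at 0), with the line through the mean of the 2 replicates. PPAT and PAICS stay near their level at 0 min until 30 min and have both replicates above all earlier libraries at 240 min, as does PRPS1, whereas CAD ends below its level at 0 min.

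Among the pentose phosphate enzymes, PGD catalyses the later of the oxidative steps that yield NADPH. PGD measured 245 and 235 CPM before insulin, 239 and 240.2 CPM after 5 min, 245 and 256 CPM after 10 min, 241 and 226 CPM after 30 min and 277 and 256 CPM after 240 min. The 2 libraries at 240 min lay above both at 0 min, but the lower of them was level with 1 library at 10 min. PGD rose from 0 to 240 min by 0.16 on the log2 scale (SE 0.0518, adjusted p = 0.0213) and from 30 to 240 min by 0.19 (SE 0.0520, adjusted p = 0.00647). The call against 0 min was lost without replicate 2 at 0 min (0.12) and without replicate 1 at 240 min (0.093), and that against 30 min without replicate 2 at 30 min (0.15) or replicate 1 at 240 min (0.13).

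TKT and TALDO1 encode transketolase and transaldolase, which exchange carbon units between sugar phosphates in the non-oxidative branch. TKT measured 253 and 241 CPM at 0 min and 236 and 238 CPM at 240 min, and ranged from 221 to 262 CPM over the 10 libraries. TALDO1 measured 119.7 and 109 CPM at 0 min and 109 and 114 CPM at 240 min. At 240 min TKT lay below both libraries at 0 min, and TALDO1 overlapped them. Neither passed the threshold: the log2 fold change of TKT was -0.06 (95% interval -0.17 to 0.05, adjusted p = 0.356) and that of TALDO1 was -0.03 (95% interval -0.15 to 0.08, adjusted p = 0.663). With limma on TPM the sign of TALDO1 reversed (0.0072). Both intervals lie below the estimate for PGD, but the interval of PGD itself (95% interval 0.047 to 0.264) overlaps that of TALDO1. Differences between these genes were not tested. Over the whole course TKT and TALDO1 had the most similar profiles among the members (root mean square difference of centred log2 CPM of 0.0457 over the 10 libraries).

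PRPS1 makes PRPP, the activated ribose that purine, pyrimidine and salvage enzymes share. PRPS1 measured 43.2 and 41.3 CPM before insulin, 41.1 and 41.8 CPM after 5 min, 44.4 and 46.8 CPM after 10 min, 43.0 and 43.5 CPM after 30 min and 50.2 and 48.2 CPM after 240 min. Both libraries at 240 min were above the other 8. The rise was 0.23 (log2, SE 0.0574, adjusted p = 0.00390) against 0 min and 0.19 (SE 0.0585, adjusted p = 0.0153) against 30 min. It missed the threshold against 0 min without replicate 2 at 0 min (0.19, adjusted p = 0.0708) or replicate 1 at 240 min (0.19, adjusted p = 0.0569), and against 30 min with DESeq2 (0.18, adjusted p = 0.0731) and without replicate 1 at 30 min (0.18) or replicate 1 at 240 min (0.16).

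The genes of the same enzyme complex moved in different directions. PRPS2, the close paralog of PRPS1, measured 36.4 and 36.7 CPM at 0 min and 59.1 and 55.7 CPM at 240 min, and rose by 0.65 on the log2 scale (SE 0.0575, adjusted p = 4.90e-08). PRPSAP1, one of the PRPP synthetase-associated proteins, which are described as inhibitory subunits, measured 166 and 165 CPM at 0 min and 122 and 121 CPM at 240 min, and fell by 0.45 (SE 0.0519, adjusted p = 1.51e-06). The other associated protein, PRPSAP2, had a log2 fold change of 0.08 (95% interval -0.05 to 0.21, adjusted p = 0.325), which was -0.034 with ERCC scaling. Per transcript length, the ratio of PRPS2 to PRPS1 was 0.716 ± 0.0164 at 0 min (SD, n = 2) and 0.965 ± 0.00903 at 240 min, and the ratio of PRPSAP1 to PRPSAP2 was 4.02 ± 0.0536 and 2.90 ± 0.165. PRPS1 and PRPS2 are alike in sequence, and how reads matching both were assigned is not given in the sources used here. The testis-expressed paralog PRPS1L1 did not pass the filter on low counts.

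**Figure D3:**
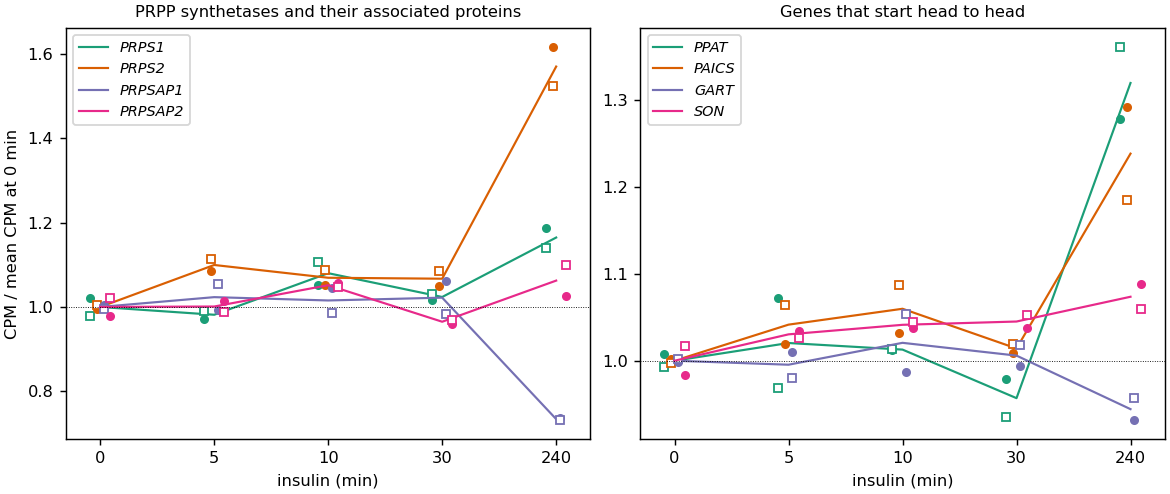
CPM relative to the mean at 0 min against the time of insulin in min, for the PRPP synthetase genes (left) and the head-to-head genes (right), with a line through the mean of the 2 replicates, shown as circle and square. PRPS2 rises and PRPSAP1 falls at 240 min with replicates close together, and PPAT and PAICS rise whereas GART and SON remain within 10% of their level at 0 min.

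PPAT catalyses the committed step of purine synthesis, and PAICS, a bifunctional enzyme, acts later in the same pathway. PPAT measured 50.0 and 49.3 CPM before insulin, 53.2 and 48.1 CPM after 5 min, 50.2 and 50.3 CPM after 10 min, 48.6 and 46.4 CPM after 30 min and 63.4 and 67.6 CPM after 240 min. PAICS measured 356 and 355 CPM before insulin, 362 and 378 CPM after 5 min, 367 and 386 CPM after 10 min, 359 and 362 CPM after 30 min and 459 and 421 CPM after 240 min. For both genes the 2 libraries at 240 min were above the 8 others. PPAT rose by 31.9% against 0 min (log2 fold change 0.40, SE 0.0588, adjusted p = 2.26e-05) and PAICS by 23.9% (0.31, SE 0.0514, adjusted p = 8.40e-05). Against 30 min, PPAT rose by 0.46 on the log2 scale (SE 0.0602, adjusted p = 6.18e-06) and PAICS by 0.29 (SE 0.0515, adjusted p = 0.000179). PPAT stood at percentile 86.5 and PAICS at percentile 81.8 of the log2 fold changes of all genes tested at 240 min against 0 min. These calls held without each of the 2 libraries of either time compared, left out in turn. They were lost with scaling by the ERCC counts (0.28 for PPAT and 0.19 for PAICS at 240 min against 0 min), which ended every call of a member while the fold change of PGD became 0.040, that of PRPS1 0.10 and that of CAD -0.33.

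GART, a trifunctional enzyme, catalyses steps that lie between those of PPAT and PAICS. GART measured 133 and 134 CPM at 0 min and 124 and 128 CPM at 240 min. Both libraries at 240 min were below those at 0 min, but the log2 fold change of -0.08 did not pass the threshold (95% interval -0.18 to 0.02, adjusted p = 0.179). Its interval lies wholly below those of PPAT and PAICS. Of the other gene of this head-to-head pair, SON, the log2 fold change was 0.10 (95% interval 0.01 to 0.20, adjusted p = 0.0850), past the threshold with upper-quartile normalization and, in sign, reversed with ERCC scaling (-0.014).

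IMPDH2 catalyses the rate-limiting step from IMP towards guanine nucleotides. IMPDH2 measured 202 and 205 CPM at 0 min and 197 and 194 CPM at 240 min, and ranged from 194 to 215 CPM over the course, the smallest coefficient of variation among the members (3.24%). At 240 min its log2 fold change was -0.06 (95% interval -0.16 to 0.04, adjusted p = 0.367). Its paralog IMPDH1 did not pass either, with -0.04 (95% interval -0.18 to 0.11) that reversed to 0.043 with limma on TPM, and IMPDH2 exceeded it per transcript length 9.61-fold at 0 min and 9.22-fold at 240 min.

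CAD is the trifunctional enzyme that starts pyrimidine synthesis. CAD measured 83.8 and 85.9 CPM before insulin, 76.8 and 77.0 CPM after 5 min, 82.7 and 82.2 CPM after 10 min, 85.3 and 74.9 CPM after 30 min and 71.4 and 75.5 CPM after 240 min. The 2 libraries at 240 min were below both at 0 min, but 1 library at 30 min lay between them. CAD fell by 0.21 on the log2 scale against 0 min (SE 0.0580, adjusted p = 0.00637), and its difference from 30 min did not pass (-0.13, 95% interval -0.26 to -0.01, adjusted p = 0.0862). That difference was -0.22 without replicate 2 at 30 min (adjusted p = 0.00854) and -0.03 without replicate 1 at 30 min (adjusted p = 0.745). The call against 0 min was lost with limma on log2(TPM + 1) (-0.16, adjusted p = 0.105), without replicate 2 at 0 min (-0.19, adjusted p = 0.0605) and without replicate 1 at 240 min (-0.17, adjusted p = 0.0807). Over the alternatives the adjusted p ranged from 0.00250 to 0.303.

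The comparisons of later times with 0 min share the same 2 control libraries. At 240 min against 30 min, which uses other controls but the same libraries at 240 min, 4 of 9 members rose (PPAT, PAICS, PGD and PRPS1) and 0 fell. Of all genes 38.2% were called, 19.8% higher and 18.4% lower. Without replicate 1 at 240 min, the calls of PGD and PRPS1 were lost in both comparisons at this time. That of CAD against 0 min was lost too, whereas those of PPAT and PAICS held.

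**Figure D4:**
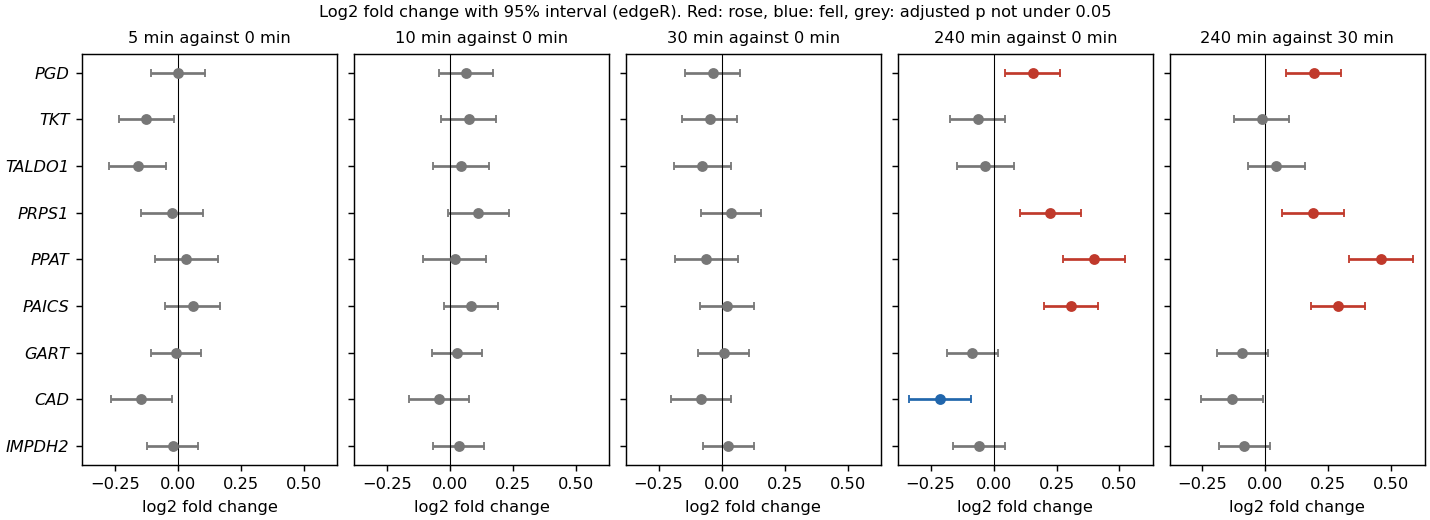
Log2 fold change with its 95% interval for the 9 members in 5 comparisons, coloured by the call of edgeR's quasi-likelihood test. The intervals of PPAT, PAICS, PRPS1 and PGD lie above 0 in both comparisons of 240 min, and in the comparisons of 5, 10 and 30 min with 0 min no member passes the threshold.

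At the earlier times no member passed the threshold. At 5 min 0 of 9 members and 0% of all genes were called, at 10 min 0 of 9 and 0.137%, and at 30 min 0 of 9 and 0.332%. DESeq2 likewise called 0 members at each of these times, and 2 of all genes at 5 min. At an unadjusted p under 0.05 there were 3 members at 5 min (1976 of all genes), 0 at 10 min (710 of all genes) and 0 at 30 min (1125 of all genes).

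The 3 members at 5 min were TALDO1, CAD and TKT. TALDO1 measured 106 and 98.3 CPM at 5 min, below 119.7 and 109 CPM at 0 min, a log2 difference of -0.16 with an adjusted p of 0.255. CAD had -0.14 (adjusted p = 0.292) and TKT -0.12 (adjusted p = 0.304), each with both libraries below those at 0 min. None of these was past the threshold, and at 10 min TALDO1 (117 and 118 CPM) again overlapped the level at 0 min. Separation of the replicates alone was common, since 48.4% of all genes did not overlap between 5 and 0 min, 37.2% between 10 and 0 min and 69.7% between 240 and 0 min. Among the members, 4 did not overlap at 5 min, 6 at 10 min and 8 at 240 min. At 10 min the member with the largest difference was PRPS1, with a log2 difference of 0.11 (95% interval -0.01 to 0.23, adjusted p = 0.951), and at 30 min the members lay between -0.08 and 0.04.

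The other genes of these pathways, 56 in 6 lists, were measured beside the members, and 51 passed the filter. NME2 and MTHFS, named after their values were seen, did not pass. NME2 had 2 to 11 counts per library but a mean of 337 TPM, and MTHFS 2 to 12 counts but 29.6 TPM. The source of this difference between counts and TPM was not tested. At 240 min against 0 min 12 rose and 3 fell (29.4% called), beside 41.0% of all genes tested (20.6% higher and 20.4% lower), and at 5, 10 and 30 min 0 of them were called. Called genes went both ways in the purine, deoxynucleotide and folate lists and only up in the pentose phosphate, pyrimidine and salvage lists, which held 1, 4 and 2 calls.

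Of 5 other pentose phosphate genes tested, 1 rose and 0 fell. RPIA, which makes ribose 5-phosphate, rose by 0.32 (adjusted p = 0.000854). The transketolase-like genes TKTL1 and TKTL2 did not pass the filter.

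Of 10 other PRPP and purine genes tested, 3 rose and 1 fell. Beside PRPS2 and PRPSAP1 these were GMPS, which makes GMP (0.26, adjusted p = 0.000378), and ATIC, which catalyses the final steps to IMP (0.15, adjusted p = 0.0199). The ATIC call was lost without replicate 2 at 0 min (0.11) and without replicate 1 (0.16) or replicate 2 (0.14) at 240 min. PFAS and ADSL, which act before and after PAICS, and are named for that place after their values were seen, had log2 fold changes of -0.05 and -0.03 with adjusted p of 0.524 and 0.717.

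Of 7 other pyrimidine genes tested, 4 rose and 0 fell, whereas the member of this pathway, CAD, fell. DHODH, the mitochondrial step that follows CAD, rose by 0.46 (adjusted p = 0.000408) and CTPS1, which makes CTP, rose by 0.42 (adjusted p = 1.80e-05). CMPK2, a mitochondrial nucleotide kinase, rose by 99.9% (adjusted p = 0.00760) at a low level, 0.915 ± 0.150 CPM at 0 min and 1.78 ± 0.0858 CPM at 240 min (SD, n = 2), and the call was lost with DESeq2 (0.98 on the log2 scale), with limma on log2(TPM + 0.1) (0.92) and without replicate 2 at 0 min (0.79). With limma on log2(TPM + 1) it held at 0.52, on a scale that understates the change of low genes. CMPK1, a related kinase, rose by 0.15 (adjusted p = 0.0213), and UMPS, which completes UMP, had 0.11 (adjusted p = 0.0822), both named after their values were seen.

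In the deoxynucleotide list of 7 genes, RRM2, a ribonucleotide reductase subunit, rose by 0.21 (adjusted p = 0.00311) and RRM2B, a p53-responsive subunit, fell by 0.29 (adjusted p = 0.00208). The calls of RRM2 (0.14) and RRM2B (-0.20) were lost without replicate 2 at 0 min, and that of RRM2B also without replicate 1 at 240 min (-0.22) and with limma on log2(TPM + 1) (-0.23) or log2(TPM + 0.1) (-0.23). In the folate list of 9 genes tested, SHMT1 rose by 0.24 (adjusted p = 0.00337) and ALDH1L1, which breaks down formyl-tetrahydrofolate, fell by 0.24 (adjusted p = 0.0161), a call lost without replicate 1 at 0 min (-0.17) or replicate 2 at 240 min (-0.19) and with limma on log2(TPM + 1) (-0.17) or log2(TPM + 0.1) (-0.18). In the salvage list of 13 genes, PNP rose by 0.44 (adjusted p = 5.17e-05) and UCK2 rose by 0.22 (adjusted p = 0.00411), the latter lost without replicate 1 at 240 min (0.19), and the other 11 did not pass. With ERCC scaling PRPSAP1 remained past the threshold (-0.56, adjusted p = 0.0396), the calls of the other list genes named were lost, among them the falls of RRM2B (-0.40) and ALDH1L1 (-0.36), whose size grew, and CMPK1 was not examined.

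**Figure D5:**
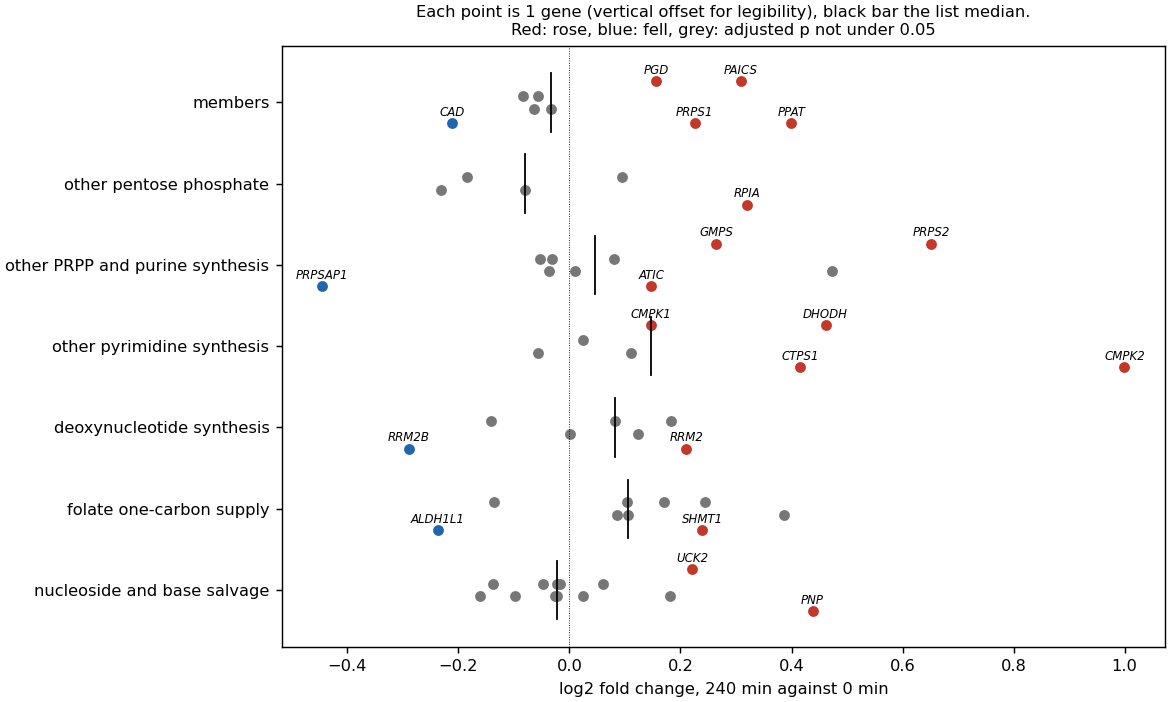
Log2 fold change at 240 min against 0 min of each gene tested in the members and in the 6 other lists, with a bar at the list median and names for genes past the threshold. Both red and blue points occur in 4 of the 7 rows, and among called genes CMPK2 and PRPS2 rise most and PRPSAP1 falls most.

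By root mean square difference of log2 CPM profiles, each centred on its mean over the 10 libraries, the genes nearest to PAICS were RBM17 (0.0189) and SET (0.0221), out of 10387 genes averaging 5 CPM or more. The nearest to PPAT were ZNF17 (0.0362) and FADD (0.0393), so that neither member of the head-to-head pair had the other as its nearest gene. STARD7 was nearest to PGD (0.0234), POLR2K to PRPS1 (0.0231), TYK2 to CAD (0.0247), ADAR to IMPDH2 (0.0183) and TMEM230 to GART (0.0189). ABCB6 was nearest to TKT (0.0233) and VARS to TALDO1 (0.0232), followed by IMPDH1 (0.0240), the paralog of another member. These are descriptions over libraries that share their depth and scaling.

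The IR ChIP-seq library, which gave 1971 peaks, held 1 peak within 5 kb of a member, against 15.7% of all genes tested with such a peak. This peak (hg19 chr21:34915369-34915735) had a score of 114, rank 765 of 1971, where the median score was 79.0, and its edge lay 171 bases from the start of GART. HOMER, in the deposited annotation, assigned it to the promoter of SON, so that by nearest gene 0 members had a peak. Within 20 kb CAD was added, with a peak (chr2:27434809-27435211, score 62) 5047 bases from its start that is assigned to ATRAID. GART had a further peak in this range (chr21:34863689-34864164, score 136, rank 660). It lay 51034 bases from the GART start and is assigned to DNAJC28. The 2 members within 20 kb and 0 by nearest gene compare with 21.3% and 8.58% of all genes tested. PPAT and PAICS, the members with the largest rises, had no peak within 20 kb, nor did PGD, TKT, TALDO1, PRPS1 or IMPDH2. With 1 ChIP library the peaks have no replicate check.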

How the data were processed

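The authors trimmed reads with Trim Galore 0.6.4, aligned the RNA-seq reads to hg19 with STAR 2.6.1d, counted them per gene as reverse-stranded with featureCounts 1.6.4 and deposited raw counts. The authors also deposited StringTie abundances as TPM. The authors aligned the ChIP-seq reads with BWA 0.7.17-r1188, called peaks with MACS2 2.2.7.1 and deposited 1 table with a score per peak, annotated by HOMER.

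The 92 ERCC rows (1.59% to 2.36% of counts) were excluded from library totals and from testing. Counts were tested in 1 model of the 10 libraries with edgeR 4.0.16 (R 4.3.3), TMM normalization, filterByExpr and the two-sided quasi-likelihood test, with Benjamini-Hochberg adjustment over 13852 genes. CPM are counts scaled by TMM library size. Standard errors and 95% intervals were back-calculated from each fold change and its quasi-likelihood F. Genes named are the members, their paralogs and partners, up to 3 rises and 3 falls per list, head-to-head neighbours and the nearest profiles. The members and lists were chosen with earlier results of these data known, and 2 listed genes are not reported here. Alternatives were DESeq2 1.42.0, limma 3.58.1 on TPM, other scalings and filters, a replicate block, only the times compared and each library left out. Peaks counted when within 5 kb of a gene. Promoter windows came from RefSeq (GRCh38.p14) and no coordinates were converted between builds.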

Additional observations from a re-analysis of the deposited data

How the results depend on the processing

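Of 9 members, 5 were called at 240 min against 0 min, beside 41.0% of all genes tested. With ERCC scaling 0 members were called, beside 1059 of all genes. When 1 library was left out, the group left with 1 library was assumed to vary like the others. The log2 fold change against 0 min then ranged from 0.35 to 0.44 for PPAT and from 0.24 to 0.37 for PAICS. It ranged from 0.19 to 0.25 for PRPS1, from 0.093 to 0.21 for PGD and from -0.25 to -0.17 for CAD. The calls of PGD, PRPS1 and CAD depended on replicate 2 at 0 min, the deepest library, and on replicate 1 at 240 min. The 4 calls at 240 min against 30 min became 0 with ERCC scaling, beside 917 of all genes. Those of PGD and PRPS1 were lost without replicate 1 at 240 min. The cause was not tested. At 5, 10 and 30 min 0 members were called under every alternative run. Signs reversed only where the member or partner had not passed: TALDO1 at 240 min against 0 min was 0.0072 with limma on log2(TPM + 1), also after dropping genes under a mean of 1 TPM, 0.0073 with log2(TPM + 0.1) and from -0.10 to 0.030 with 1 library left out (0.030 without replicate 1 at 0 min). TKT at 240 min against 30 min was 0.0095 with upper-quartile normalization and from -0.083 to 0.055 with 1 library left out (0.055 without replicate 1 at 30 min). IMPDH1 was 0.043 with limma on log2(TPM + 1), with either filter, 0.045 with log2(TPM + 0.1) and from -0.091 to 0.021 with 1 library left out (0.021 without replicate 1 at 240 min). With ERCC scaling PRPSAP2 was -0.034 and SON -0.014, and the median of all genes shifted to -0.12 at 240 min against 0 min and to -0.33 at 10 min. Members with an IR peak numbered 2 within 20 kb (21.3% of all genes tested) and 0 by nearest gene (8.58%).

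Deviations of replicate 1 from the mean of its time were weakly correlated between times. Of 10 pairs of times, 2 had correlations over 0.1 (range -0.12 to 0.13). These values cannot show whether replicates of the same number were cultured or processed together. With the replicate block, 5 members were called at 240 min against 0 min, 4 against 30 min and 0 at the earlier times, as without it.

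Over all genes, 5676 were called at 240 min against 0 min (2847 rose and 2829 fell), 1059 with ERCC scaling (331 and 728) and 4217 with limma on log2(TPM + 1) (2638 and 1579). Against 30 min 5297 were called (2743 and 2554), and 917 with ERCC scaling (573 and 344). At 5, 10 and 30 min the 0, 19 and 46 genes called became 144, 74 and 160 with no filter on low counts, and over the alternatives ranged from 0 to 144, 1 to 74 and 4 to 160. With ERCC scaling the 6 rises and 13 falls at 10 min became 0 and 20.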
